A study of Homo sapiens with 24 samples.

Results

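The regions described here are the peaks on human chromosome 16 in MYC-tag chromatin immunoprecipitation sequencing of lung adenocarcinoma cells. A peak is a stretch of DNA where immunoprecipitated fragments pile up above the local background. The members were chosen by the chromosome recorded in the deposited peak lists, and chromosome 16 was picked from the numbers of peaks already seen there, so those numbers are given as a description. Of 6236 peaks in 6 lists, 370 lay on chromosome 16, or 5.93%, on a chromosome that makes up 2.92% of the length of the assembly GRCh37. All coordinates are on GRCh37 and start from 1.

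PC9 is a lung adenocarcinoma line driven by mutant EGFR, and PC9-OR is its osimertinib-resistant form, grown in 1 uM osimertinib, an inhibitor of the EGFR kinase. PC9 was profiled untreated, as wild type (PC9_WT) and with overexpression of METTL7A-MYC-tag-FLAG (PC9_M7A_OE), a methyltransferase-like protein joined to both epitope tags. PC9-OR was profiled under osimertinib, as wild type (PC9_OR_WT), with the empty vector EV-MYC-tag-FLAG (PC9_OR_EV), with METTL7A-MYC-tag-FLAG (PC9_OR_M7A_OE) and with METTL7A-MYC-tag-FLAG-K86A (PC9_OR_K86A). The empty-vector genotype names the tags without METTL7A, and the wild-type genotype names no construct. Expression of the constructs cannot be checked from peak lists. Each of these 6 groups has 2 immunoprecipitated libraries and matched inputs. The promoter of the constructs and the clonality of the lines are not stated in the labels. Each list holds the peaks of 1 or 2 peak-calling runs, told apart by the peak numbering, with 10 runs in all. For METTL7A and wild type it is inferred, not stated, that runs are replicates, and peaks within a run carry no replicate error. Sequencing depth of single libraries is unknown here.

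Chromosome 16 is among the gene-rich human chromosomes. Its short arm ends in 16p13.3, a light-staining band with the alpha-globin genes, the tumour suppressor gene TSC2 and the acetyltransferase gene CREBBP. Its long arm ends in 16q24, which holds FOXF1, a transcription factor gene of the lung mesenchyme, IRF8, an interferon regulatory factor gene, BANP, a gene for a nuclear protein that binds DNA, and FANCA, a gene of DNA crosslink repair. Between them lie the centromere and the large satellite block of 16q11.2. Gene bands are textbook background. A gene annotation and a genome sequence of GRCh37 were not used here, so no peak is assigned to a gene and no sequence is shown.

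Peaks on chromosome 16 appeared in 5 of the 10 runs and nearly all came from 1 of them. The second METTL7A run of PC9-OR held 326, or 6.69% of its 4870 peaks (exact 95% binomial interval 6.01 to 7.43%). The first METTL7A run of PC9-OR held 3, or 4.48% of 67 (0.933 to 12.5%). Both runs of PC9-OR wild type, both of the empty vector and the single run of K86A held 0. These control runs list 9, 1, 5, 1 and 1 peaks, so by the rule that a count of 0 allows up to 3 counts, the share could reach 33.3% in the longest of them. Intervals and such limits cover counting error only.

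In parental PC9 the groups did not separate by their share of peaks on chromosome 16. The first wild-type run held 33 chromosome 16 peaks, or 2.89% of 1143 (2.00 to 4.03%), and the second wild-type run held 6, or 7.23% of 83 (2.70 to 15.1%). The single METTL7A run of PC9 held 2, or 3.57% of 56 (0.435 to 12.3%). The METTL7A share thus lay between those of the wild-type runs, and all 3 intervals overlap. The numbers of chromosome 16 peaks followed the lengths of the lists, in PC9 as in PC9-OR. No test of these numbers is given, since they chose the chromosome and the PC9-OR control runs were all at 0.

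Within chromosome 16 the peaks of the second PC9-OR METTL7A run were crowded at the ends of both arms, and more so on the long arm. Band 16q24 spans 6.81% of the chromosome and held 118 of the 326 peaks, or 36.2% (31.0 to 41.7%). Band 16p13.3 spans 8.74% of the chromosome and held 48, or 14.7% (11.1 to 19.0%). The remaining 76.3 Mb held 160 peaks. In peaks per Mb this was 19.2 in 16q24 (exact 95% Poisson interval 15.9 to 23.0), 6.08 in 16p13.3 (4.48 to 8.06) and 2.10 in the rest (1.78 to 2.45). The density of 16q24 was thus 9.14 times that of the rest, and that of 16p13.3 was 2.90 times. The intervals do not overlap, but they treat neighbouring peaks as independent. Over the whole PC9-OR METTL7A list, with the 3 peaks of the first run added to the rest, the ratios were 8.97 and 2.84. Counted as clusters of peaks within 10 kb over the whole list, the ratio of 16q24 fell to 6.74. The rest includes 12.4 Mb of centromere and heterochromatin bands without a peak of this run. With these bands left out, the whole-list ratios were 7.52 for 16q24 and 2.38 for 16p13.3.

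**Figure D1:**
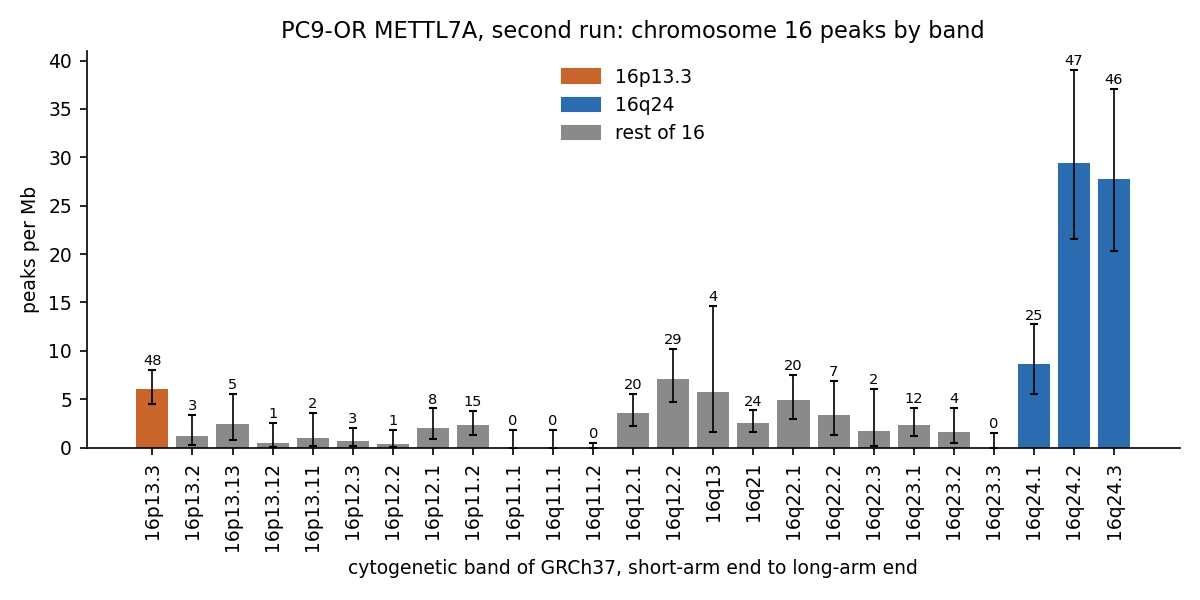
Chromosome 16 peaks per Mb in each of the 25 cytogenetic bands (x axis, short-arm end to long-arm end) for the second PC9-OR METTL7A run, with exact 95% Poisson intervals as error bars and the number of peaks above each bar. Bands 16q24.2 and 16q24.3 stand at 29.4 and 27.8 peaks per Mb, and 4 bands are empty.

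The end of the long arm was uneven within itself. Band 16q24.1, where FOXF1 and IRF8 lie, held 25 peaks, or 8.62 per Mb (5.58 to 12.7). Band 16q24.2, that of BANP, held 47, or 29.4 per Mb (21.6 to 39.1), and 16q24.3, that of FANCA, held 46, or 27.8 per Mb (20.4 to 37.1). The intervals of the outer bands overlap widely and lie above that of 16q24.1. Just inside this region, 16q23.3 held 0 peaks over its whole length, and 2.53 Mb separated the last peak of 16q23.2 from the first of 16q24.1. The inner border of 16q24 thus parted an empty band from the 8.62 peaks per Mb of 16q24.1. The larger rise, to 29.4 per Mb, came at 16q24.2. The fullest 1 Mb window was that from 88 to 89 Mb, with 44 peaks in 22 clusters, and its neighbours on either side held 23 each in 13 clusters. These 3 windows together held 90 peaks, or 27.6% of the run on this chromosome.

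At the other end the crowding was confined to the outer part of 16p13.3 in this run. All 48 peaks of the band lay in its outermost 5 Mb, at 9.60 per Mb, the last one ending at 4734904. The inner 2.90 Mb of the same band, where the very long neuronal splicing gene RBFOX1 lies, held 0, and the next peak started at 8524546 in 16p13.2, 3.79 Mb further on. The first 3 windows of 1 Mb held 12, 18 and 10 peaks. Neighbouring peaks of 16p13.3 were a median of 39.0 kb apart, against 14.1 kb in 16q24 and 79.7 kb in the rest.

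The rest of the chromosome had a crowded stretch of its own. The windows from 56 to 58 Mb, at the joint of 16q12.2, 16q13 and 16q21, held 15 and 23 peaks, together 11.7% of those on the chromosome. The metallothionein genes, which encode small metal-binding proteins, lie in this part of the long arm. Band 16q12.2 reached 7.07 peaks per Mb (29 peaks) and 16q13 reached 5.71 (4 peaks), close to the 6.08 of 16p13.3. In 16q21, 19 of the 24 peaks lay before 58 Mb and 5 in the remaining 8.70 Mb of the band. Band 16q22.1, which holds the E-cadherin gene CDH1, had 20 peaks, or 4.88 per Mb. The lowest filled bands were 16p12.2 with 1 peak (0.333 per Mb), 16p13.12 with 1 (0.455 per Mb) and 16p12.3 with 3 (0.682 per Mb).

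No peak of this run lay in the 12.4 Mb of the centromere bands 16p11.1 and 16q11.1 and the heterochromatin band 16q11.2. The longest stretch without a peak, 13.4 Mb, ran from 34456577 to 47889368. Gaps of the assembly were not subtracted from any length. By arm, the long arm held 240 peaks, or 4.46 per Mb, and the short arm 86, or 2.35 per Mb. Outside 16p13.3 and 16q24, light-staining bands held 2.64 peaks per Mb, against 2.34 in the medium-staining bands (gpos50) and 2.58 in the darkest band, 16q21. These averages hide an uneven spread. Of the 51 gpos50 peaks, 29 lay in 16q12.2, and 19 of the 24 peaks of 16q21 lay before 58 Mb. Staining classes were not compared without this crowded part. Of 91 windows of 1 Mb, 37 were empty and 10 held at least 10 peaks each, together 59.2% of the peaks.

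**Figure D2:**
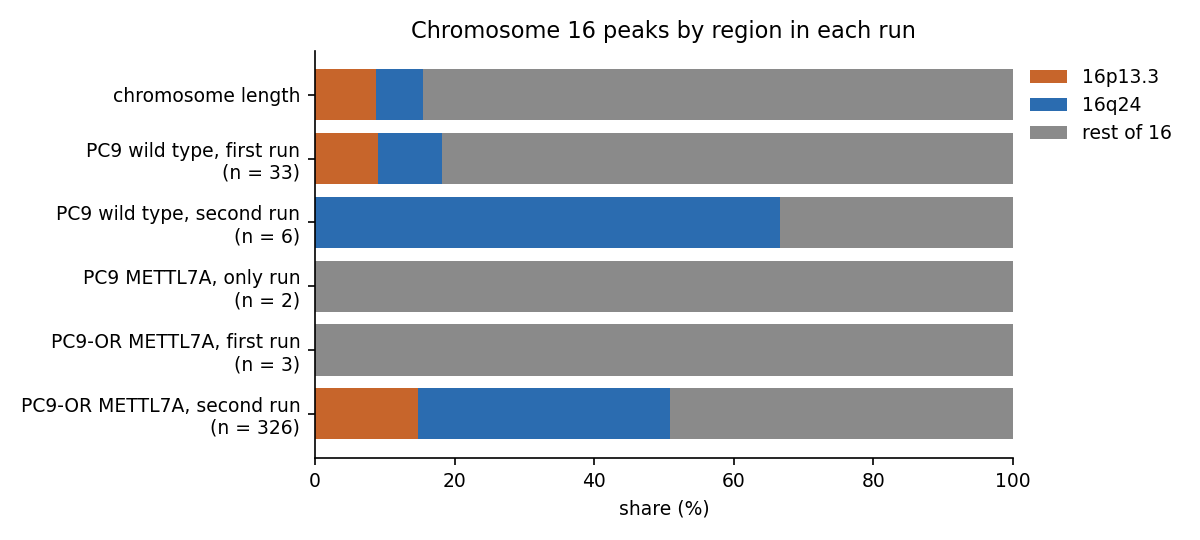
Share of chromosome 16 peaks (x axis, percent) in 16p13.3, 16q24 and the rest for each of the 5 runs that hold any, below the share of each region in the chromosome length. The first PC9 wild-type run follows the length closely (9.09% of 33 peaks in 16q24), and in the second run of PC9 wild type 4 of 6 peaks fall in 16q24.

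The long-arm end also held peaks in cells labelled wild type. In the second run of parental wild type, 4 of the 6 chromosome 16 peaks lay in 16q24, or 66.7% (22.3 to 95.7%). They were 16:84212970-84213244 in 16q24.1, with a deposited fold enrichment of 5.78 and 6 fragments at the summit, and 3 in 16q24.3. Those were 16:88802953-88803221 with a fold of 6.61 and 7 fragments, 16:89235131-89235443 with 5.78 and 6, and 16:89636563-89636863 with 5.45 and 6. The other peaks of this run were 16:29624514-29624821 in 16p11.2 with a fold of 6.61 and 16:75681812-75682089 in 16q23.1 with 6.16, each with 7 fragments. None lay in 16p13.3. The first parental wild-type run showed no such crowding, with 3 of 33 peaks in 16q24, or 9.09% (1.92 to 24.33%), and 3 in 16p13.3. In 16q24 these were 16:85822258-85822562, 16:87162647-87162905 and 16:88337985-88338317, with folds of 2.93, 2.93 and 2.90. In 16p13.3 they were 16:596423-596703, 16:1155148-1155519 and 16:6302744-6303059, with folds of 2.94, 2.91 and 2.91. The last of these lies in the inner stretch of 16p13.3 that the second PC9-OR METTL7A run left empty. In the rest of the chromosome the highest folds were 3.95 for both 16:8116856-8117116 in 16p13.2 and 16:62725937-62726197 in 16q21, 3.88 for 16:71669824-71670149 in 16q22.2 and 2.96 for 16:60044453-60044695 in 16q21 and 16:80248028-80248390 in 16q23.2. Every fold of this run on chromosome 16 was thus below 4. Its densities were 0.487, 0.380 and 0.354 peaks per Mb in 16q24, in 16p13.3 and in the rest. The intervals of the share in 16q24 of these parental runs overlap, and with 6 peaks the share of the second run is only loosely fixed. Thus 16q24 is not shown to be crowded in METTL7A cells alone.

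The first PC9-OR METTL7A run placed its 3 peaks elsewhere. They were 16:51355279-51355530 in 16q12.1 with a fold of 5.48, 16:54070824-54071166 in 16q12.2 with 5.37 and 16:82323764-82324030 in 16q23.3 with 5.97, on 9, 8 and 9 fragments. The last lies in a band without a peak of the second run. They lay 595, 170 and 642 kb from the nearest peak of the second METTL7A run, so no chromosome 16 position was called in both. Over all chromosomes, 2 of the 67 peaks of the first run, or 2.99%, overlapped a peak of the second by at least 1 bp. The lack of overlap is thus not particular to chromosome 16. With 0 of 3 peaks in 16q24 the share has an upper limit far above that of the second run, and a difference between the METTL7A runs in this share was not detectable at this number.

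Chromosome 16 positions called in more than 1 run were few. The second parental wild-type run and the second PC9-OR METTL7A run shared 2 by at least 1 bp, and no other pair of runs shared any. In 16q24.1 the wild-type peak 16:84212970-84213244 overlapped the METTL7A peak 16:84212795-84213193 over 224 bp, 81.5% of the shorter of them, and the METTL7A fold there was 6.82 on 9 fragments. In 16q24.3 the peak 16:89235131-89235443 overlapped 16:89234676-89235187 over 57 bp, 18.2% of the shorter, with a METTL7A fold of 4.59 on 7 fragments. Another wild-type peak, 16:88802953-88803221, ended 504 bp short of a METTL7A peak. The shared peaks make up 33.3% of the 6 wild-type peaks, where 15.7% of all 83 peaks of that run overlapped the same METTL7A run, and 0.613% of the 326 METTL7A peaks, where 0.267% of all 4870 did. Both shares lie above their backgrounds, but with 2 shared peaks it cannot be told whether they differ from them. Of the 33 peaks of the first parental wild-type run, none overlapped the second PC9-OR METTL7A run by 1 bp. Over all 1143 peaks of that wild-type run 2 did, or 0.175%, so 0 of 33 does not set chromosome 16 apart. The median distance from the 33 to the nearest peak of the METTL7A run was 173 kb.

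The leading peaks of the second PC9-OR METTL7A run on this chromosome were modest in height. In 16q24 the highest deposited folds were 8.20 for both 16:88834328-88835309 and 16:89233516-89234274 in 16q24.3, each with 10 recovered fragments and a −log10 q of 7.79. They were followed by 16:87730628-87731151 in 16q24.2 with a fold of 7.46 on 9 fragments, and by 16:84212795-84213193 and 16:88836862-88837282, both with 6.82 on 9. Of these 5, only 16:84212795-84213193 overlapped a wild-type peak. In the rest of the chromosome 16:57990830-57991482 in 16q21 led with 7.28 on 9 fragments, ahead of 16:81110610-81110957 in 16q23.2 with 6.85 on 10 and 16:57711780-57712198 in 16q21 with 6.82 on 9. Next came 16:49624321-49624809 in 16q12.1 and 16:70724980-70726291 in 16q22.1, both with 6.71 on 8 fragments. In 16p13.3 no peak exceeded a fold of 5.97, which 8 peaks shared on 7 fragments. The outermost 5 of these were 16:901612-902309, 16:989291-989666, 16:1052431-1053484, 16:1173828-1174650 and 16:1231022-1231401.

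Few chromosome 16 peaks of this run reached a −log10 q of 5. They numbered 13, or 3.99%, against 8.83% of all peaks of the run and a median of 4.78% over its 23 chromosomes. Of the 13, 8 lay in 16q24, 5 in the rest and 0 in 16p13.3. Among the 23 chromosomes with peaks in this run, chromosome 16 had rank 3 by peaks per Mb, at 3.61, and rank 16 by the share of such strong peaks. Chromosomes 20 and 22, the only ones with a higher density, had 23.8% and 12.5% strong peaks. Recovered fragments on chromosome 16 ran from 4 to 11 with a median of 6, and 296 peaks, or 90.8%, had at most 7. The median over the whole run was also 6. The density of chromosome 16 was high while its share of strong peaks lay below the median chromosome.

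A larger share of peaks lay in clusters at the long-arm end. With neighbours at most 10 kb apart joined, the 326 peaks formed 229 clusters, of which 172 were single peaks. The share of peaks in a cluster of 2 or more was 47.2% on chromosome 16, against 39.5% over the run and a median of 30.3% over its chromosomes. By region it was 62.7% in 16q24 (74 of 118), 43.8% in 16p13.3 (21 of 48) and 36.9% in the rest (59 of 160). It rose along 16q24 from 28.0% in 16q24.1 to 63.8% in 16q24.2 and 76.1% in 16q24.3. A fixed gap of 10 kb joins more peaks where they are denser. These shares were not compared with those that density alone would give.

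**Figure D3:**
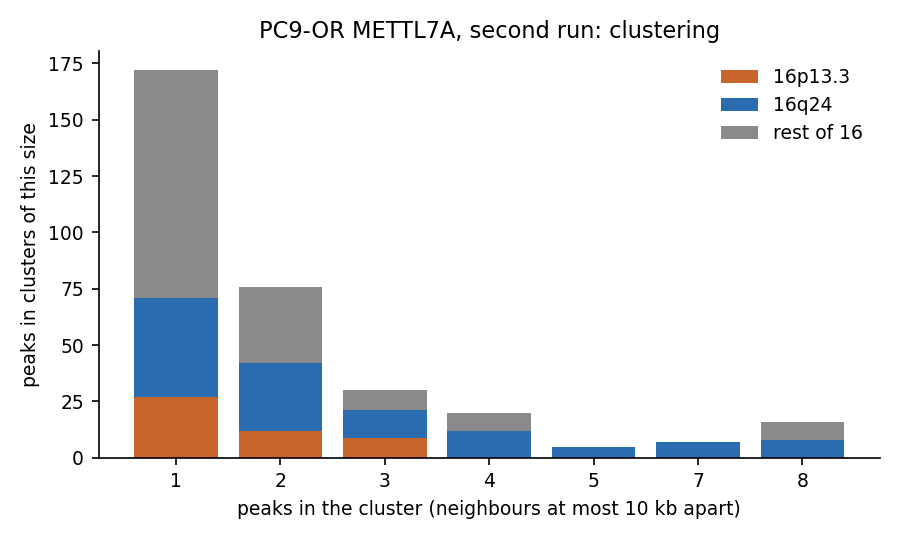
Peaks of the second PC9-OR METTL7A run on chromosome 16 (y axis, number of peaks) by the size of the cluster they belong to (x axis, peaks per cluster), coloured by region. Clusters of 5 and 7 peaks are found in 16q24, and of the pair of clusters with 8 peaks 1 lies in 16q24 and 1 in the rest. In 16p13.3 no cluster exceeds 3 peaks.

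Of the clusters with the most peaks, 2 held 8 each. That in 16q24.2 spanned 16:87862779-87890632, 27.9 kb, with peaks on 5 to 8 fragments and folds of 4.47 to 6.71, and 14.9% of the span was covered by peaks. That in 16q12.2 spanned 16:56342397-56378473, 36.1 kb, with folds of 4.45 to 5.97 and 8.91% covered. The next, in 16q24.3, held 7 peaks over 16:88967557-89003284 with folds of 3.73 to 5.22. In each of the 3, peaks covered less than the gaps between them, with 7.37% covered in the last. Joined at 50 kb, the largest cluster became one of 35 peaks over 453 kb in 16q24.3, 16:88782358-89235187, with 231 fragments summed over its summits. Both 16q24.3 peaks of parental wild type that overlapped or nearly touched METTL7A peaks lie at the borders of or within this stretch.

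Widths differed little between the regions. In the second PC9-OR METTL7A run the median width was 404.5 bp in 16p13.3 (quartiles 361 and 512), 397.5 bp in 16q24 (343 and 511) and 384 bp in the rest (343 and 461). The quartile ranges overlap, and the median over all peaks of the run was 399 bp. The narrowest peak was 16:625987-626300 in 16p13.3, with 314 bp. The widest was 16:88803726-88805308 in 16q24.3, with 1583 bp, and it is the one that a parental wild-type peak nearly touched. Peaks of at least 1 kb numbered 10, or 3.07%, against 4.31% of the run and a median of 1.96% over its chromosomes. By group, the 3 peaks of the first PC9-OR METTL7A run measured 252, 343 and 267 bp. Those of the parental wild-type runs had medians of 284 bp (239 to 454) and 289.5 bp (269 to 313) in the first and second run, and those of PC9 METTL7A measured 406 and 339 bp. The second PC9-OR METTL7A run thus had a higher median than the parental wild-type runs. Its 314 bp minimum was also that of its 4870 peaks, while the first wild-type run went down to 231 bp over all its peaks, so the lists have different floors on width.

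**Figure D4:**
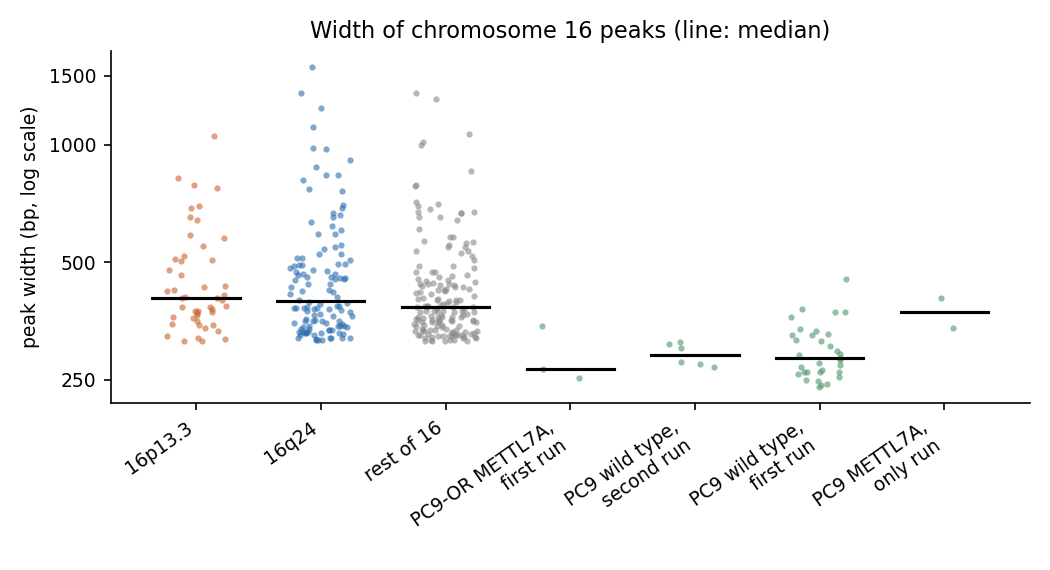
Width of every chromosome 16 peak (y axis, bp, log scale) by region in the second PC9-OR METTL7A run and in the other 4 runs that hold any, with medians as lines. Medians lie between 384 and 404.5 bp in the 3 regions of that run and at 284 and 289.5 bp in the runs of parental wild type.

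The local background under the peaks was solved for each peak from its fold and p-value as deposited, and is given as a multiple of the most common background of the same run, called the modal background. The modal background was 0.341 fragments in the second PC9-OR METTL7A run, 0.676 in the first, 0.0131 and 0.211 in the parental wild-type runs and 0.151 in PC9 METTL7A. Of the METTL7A runs of PC9-OR, that with 326 chromosome 16 peaks had the lower modal background.

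In the second PC9-OR METTL7A run most chromosome 16 peaks stood on the modal background, in the crowded ends as well. The median background was 1.00 times the modal value in 16p13.3, in 16q24 and in the rest. On chromosome 16 the modal value was also the lowest of this run. It lay under 72.9% of peaks in 16p13.3, 66.1% in 16q24 and 65.0% in the rest. Equal medians therefore do not show equal backgrounds. At least 1.5 times the modal value was found under 55 of the 326 peaks, or 16.9%, against 24.4% of all peaks of the run and a median of 14.0% over its chromosomes. By region the share was 12.5% in 16p13.3 (6 of 48), 13.6% in 16q24 (16 of 118) and 20.6% in the rest (33 of 160). Chromosomes 20 and 22 stood at 55.4% and 41.4%. On chromosome 20 the median background was 1.91 times the modal value. No test was made of these differences, since peaks of a run are not replicates.

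Raised backgrounds were spread unevenly along the chromosome. In 16q24.1 none of 25 peaks reached 1.5 times the modal value, in 16q24.2 5 of 47 did and in 16q24.3 11 of 46. The share in 16q24.3, 23.9%, was near the 24.4% of all peaks of the run. In the windows from 56 to 58 Mb 15 of 38 did, or 39.5%, and the median of the window from 57 to 58 Mb was 1.37 times. The highest value, 6.52 times, lay under the widest peak, 16:88803726-88805308, whose fold was 3.41 on 10 fragments. Next were 16:89002921-89003284 in 16q24.3 with 5.06 times and 11 fragments, and 16:89371229-89371595 in 16q24.3 and 16:75278998-75279693 in 16q23.1, both with 4.35 times. In all, 6 peaks exceeded 3 times, of which 3 lay in 16q24.3.

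**Figure D5:**
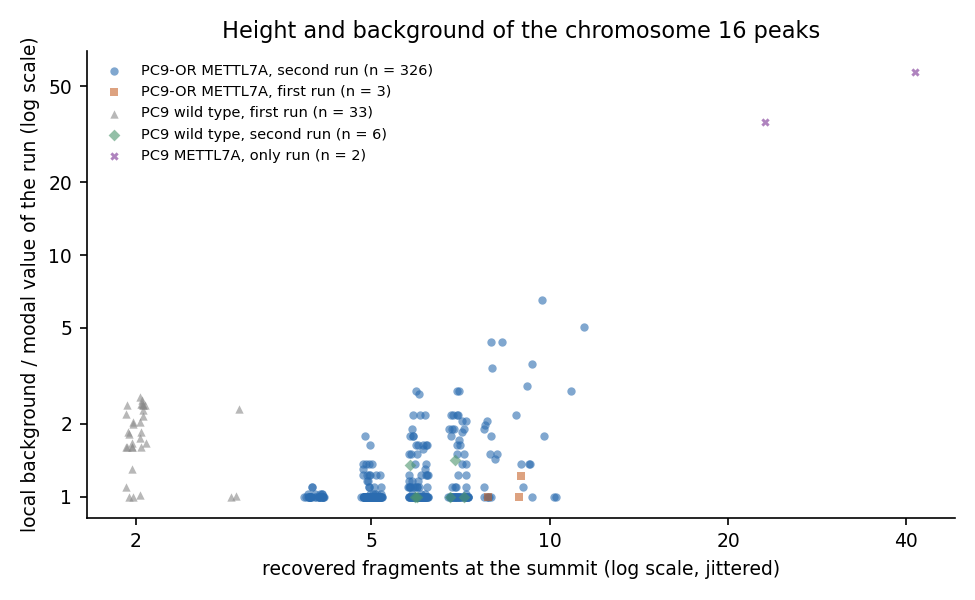
Local background over the modal value of the run (y axis, log scale) against recovered fragments at the summit (x axis, log scale, points jittered sideways) for all 370 chromosome 16 peaks. The 326 peaks of the second PC9-OR METTL7A run have 4 to 11 fragments and backgrounds up to 6.52 times, and the PC9 METTL7A peaks stand apart at 35.5 and 57.3 times.

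The other groups differed in fragments and background. The 3 peaks of the first PC9-OR METTL7A run had 1.22, 1.00 and 1.00 times its modal background. The second parental wild-type run had 1.00 to 1.41 times under its 6 peaks. In the first parental wild-type run 30 of 33 peaks rested on 2 fragments and 3 on 3. Their backgrounds reached 2.60 times with a median of 1.85, while the median over all 1143 peaks of that run was 1.24. Only 5 of the 33 stood at the modal value. At least 1.5 times that value lay under 26, or 78.8%, against 40.5% of all peaks of that run.

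The chromosome 16 peaks of PC9 with METTL7A stood on much higher backgrounds than those of the other runs on this chromosome. These 2 peaks lay 1081 bp apart in the heterochromatin band 16q11.2, at 16:46388308-46388713 and 16:46389795-46390133. Whether they lie in satellite sequence was not examined. Their recovered fragments were 23 and 41 and their folds 3.79 and 4.36, over backgrounds of 35.5 and 57.3 times the modal value of the run. The second had a −log10 q of 9.11 and the first 2.87. Raised backgrounds were also found elsewhere in this run. At least 1.5 times its modal value lay under 11 of its 56 peaks, or 19.6%. On other chromosomes the background reached 139 times and the recovered fragments 342. No other run held a peak in 16q11.2. The nearest peak of the second PC9-OR METTL7A run was 1499 kb away.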

How the data were processed

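The 12 immunoprecipitated libraries are represented by 6 deposited peak lists in narrowPeak layout. The submitters' processing notes name MACS2 2.2.7.1, Bowtie2 2.4.2, SAMtools 1.16, bedtools 2.30, Trimmomatic, deepTools 3.5.1, FastQC and the build GRCh37. Roles, settings and the control used for calling: not given in the sources used here. Positions, the score, the −log10 p and −log10 q and the fold, a ratio over local background, are the authors' deposited values, used only within a list. The score was not analysed. Depths of single libraries were not used here.

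Runs were separated where the peak number restarts or the name changes. Peaks were placed in bands by midpoint, with bands from circlize 0.4.16. Fragments and background were solved from fold = (fragments + 1) / (background + 1) and the Poisson upper tail, within 1 unit of the 6 deposited digits. All 6236 peaks were solved, with a largest misfit of 0.537, and the solver was tested on simulated data. The modal background needs at least 5 peaks in a run. Clusters join peaks at most 10 kb apart. Sharing needs 1 bp of overlap. A planned permutation test of METTL7A against control runs is not reported, because its counts chose the chromosome and its outcome was fixed by the number of runs. Intervals are exact (Clopper-Pearson or Poisson), with Python 3.11.15 and scipy 1.17.1.

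Named peaks are all members of runs with at most 10, the 5 highest folds per region, the 3 fullest clusters, the widest and narrowest peak, and shared peaks; those with the highest backgrounds were added after their values were seen. The members, regions, thresholds and named bands were chosen with earlier results of these data known.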

Additional observations from a re-analysis of the deposited data

Results flagged for a closer look

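The number of chromosome 16 peaks per run differed in opposite directions in the 2 lines, as did the lengths of the whole lists. On the scale log2(peaks + 1), METTL7A minus wild type was -2.36 in PC9, where the only METTL7A run held 2 peaks and the wild-type runs 33 and 6, and 5.18 in PC9-OR, where the METTL7A runs held 3 and 326 and the wild-type runs 0 and 0. The runs list 56 peaks in PC9 METTL7A, 1143 and 83 in PC9 wild type, 67 and 4870 in PC9-OR METTL7A and 9 and 1 in PC9-OR wild type. As a share of the run, chromosome 16 held 3.57% in PC9 METTL7A, between the 2.89% and 7.23% of PC9 wild type, so the opposite directions hold for the numbers of peaks and not for the shares. The difference between the lines was not tested.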

How the results depend on the processing

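Of 53 alternative values for 15 results, 32 were labelled as unchanged. That label left room for counts to move, as from 329 to 232 for PC9-OR METTL7A with peaks within 10 kb merged. It also covers the alternatives of the permutation test that is not reported, which were labelled by outcome alone. Those outcomes were fixed by the number of runs. With only peaks whose −log10 q reached 5, the lists of PC9 wild type, PC9 METTL7A and PC9-OR METTL7A held 0, 1 and 13 chromosome 16 peaks; the density ratio to the rest was 0 for 16p13.3 (interval 0 to 10.5, which includes the reported 2.84) and 19.8 for 16q24 (5.72 to 77.1), median widths were 641.5 bp in 16q24 and 489 bp in the rest, the median background of the rest was 1.09 times the modal value, and 11 clusters were left. No 16p13.3 peak was left for a width or background. With at least 5 fragments PC9 wild type held 6. With peaks within 10 kb merged, PC9 METTL7A held 1 and the ratio of 16q24 was 6.74. With the outer 5 Mb of each arm in place of the bands, the ratio of the short-arm end was 4.46. A gap of 50 kb gave 144 clusters with at most 35 peaks, and a gap of 1 kb at most 3. At 50% overlap 1 position was shared. Leaving out each run gave 6 to 33 peaks in PC9 wild type and 3 to 326 in PC9-OR METTL7A, with ratios of 0 to 2.90 for 16p13.3 and 0 to 9.14 for 16q24. The zeros come without the second METTL7A run, which leaves 3 peaks. No paired analysis was possible because only the empty-vector and K86A names tie runs to replicate numbers.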
